A study of Mus musculus with 12 samples.

Results

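The genotype difference of the 2 h response was the change of a gene's messenger RNA after 2 h of Pam3CSK4 in p38a-knockout dendritic cells (KO) minus the same change in wild-type cells (WT). It was taken from 8 of the 12 arrays of the series, namely arrays A and B of KO 2 h, KO 0 h, WT 2 h and WT 0 h. All cells were primary dendritic cells from lymph nodes of C57BL/6 mice, labelled p38a-knockout or wild type and kept in culture. KO 2 h and WT 2 h cultures had received Pam3CSK4 at 1 mg/ml as labelled, and KO 0 h and WT 0 h cultures had received no ligand. The 4 h arrays of both genotypes were not among the arrays compared in this difference. They took part in the normalization, in the choice of genes and probe sets tested and in the estimate of the spread. They also showed whether a gap between the genotypes was still there. The labels do not give the deleted part of the gene, the cell type or promoter of any Cre, or whether animals were pooled. There were no arrays of untreated cells at 2 h, so an effect of the ligand and one of time in culture cannot be told apart, and nothing in the labels says that arrays A and B came from separate animals or cultures. A p-value here weighs a difference against the spread between such arrays, and that spread may be technical.

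Pam3CSK4 is a synthetic lipopeptide that is sensed by Toll-like receptor TLR2 together with TLR1. The receptor signals through MyD88 to the NF-kB factors and to the MAP kinases, among them p38α, the product of Mapk14. In dendritic cells, which carry antigen to T cells, p38α phosphorylates downstream kinases that act on transcription factors and on the stability of cytokine messages, and the pathway is known for setting which cytokines reach the T cell. The genotype difference answers which early changes depended on the genotype label. For each gene it equals, by arithmetic, the KO minus WT gap at 2 h minus the KO minus WT gap at 0 h. A response that was smaller in KO can therefore come from a gap present before the ligand, from one present after it, or from both.

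All values are on the scale log2(signal + 16) after quantile normalization unless stated, errors after ± are standard errors of limma's fit, and a gene was called where its Benjamini-Hochberg adjusted p over all 12791 genes tested was under 0.05. Probe sets other than a gene's brightest were judged in a separate fit, with the adjustment over all probe sets of the array. That is a stricter test than the one over genes. The 12 arrays had trimmed mean signals of 66.6 to 119 as deposited. They were 72.5 and 66.6 on KO 2 h arrays and 119 and 75.5 on KO 0 h arrays, against 83 and 84.5 on WT 2 h arrays and 111 and 102 on WT 0 h arrays. As a check of RNA quality, the 3′ to 5′ ratio of actin was 1.16 to 1.27 on these KO arrays and 1.13 to 1.16 on these WT arrays. That of Gapdh was 0.812 to 0.938 and 0.762 to 0.834. The 2 arrays of a group correlated with r between 0.987 and 0.99 across genes, which was hardly above the highest r with an array of another group (0.984 to 0.989). The median within-group SD of a gene was 0.145. Of 28 dendritic cell markers listed, 25 were tested, and their summed signal was 54700 to 57800 on the KO arrays of 0 h and 2 h and 55400 to 58100 on the WT arrays. Of these markers 2 were called higher and 1 lower in KO at 2 h (1.01% and 1.29% of all genes), and 6 higher and 0 lower at 0 h (1.95% and 1.35% of all genes).

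Mapk14 itself was not lower on the arrays labelled KO. Its brightest probe set read 8.05 and 8.07 on KO 2 h arrays and 8.37 and 8.37 on KO 0 h arrays, against 7.76 and 7.44 on WT 2 h arrays and 8.41 and 8.02 on WT 0 h arrays. The groups overlapped at 0 h, and at 2 h both KO arrays were the higher ones. The gap was 0.46 at 2 h (adjusted p = 0.09) and 0.15 at 0 h (adjusted p = 0.69), and the difference of the responses was 0.30 ± 0.19 (adjusted p = 0.89). Another 5 probe sets of Mapk14 gave differences between -0.33 and 0.65, none of them called. The sources used here do not say where these probes lie relative to the deleted part, so Mapk14 does not check the genotype label, and the genotypes are called by their labels throughout.

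The 2 h response was shared by both genotypes, and 4 genes showed a called difference. Ccl6, Col27a1 and Procr rose less in KO, and Dnah2 fell more there, so that the difference was negative for all 4. After quantile normalization a positive difference was called for 0 genes, and 4 of 12791 genes (0.0313%) were called. With other scalings the positive difference of Dlk2 was called, as given below. At an unadjusted p under 0.05, 754 genes (5.89%) differed, 301 with a positive and 453 with a negative difference. Without single arrays the number of calls was 2 to 8, and it was 0 when a gene's probe sets were averaged and 0 with a fit without a mean-variance trend. Within each genotype the response was broad. In KO, 1004 genes rose (7.85%) and 1499 fell (11.7%) between 0 h and 2 h, and in WT 1079 rose (8.44%) and 1467 fell (11.5%), so that 19.6% of genes were called in KO and 19.9% in WT. These responses share no arrays. They had 755 genes called higher in both (30.2% of the KO calls and 29.7% of the WT calls) and 943 called lower in both (37.7% and 37%). Opposite directions were called for 3 genes, named after their values were seen: Dlk2 and Gm17396, which rose in KO and fell in WT, and Fam160a1, which fell in KO and rose in WT. Across genes the KO and WT responses correlated with r = 0.766, a description over genes that share arrays and probes and are not independent replicates. A gene called in only 1 genotype, as 802 were in KO and 845 in WT, is not thereby shown to differ between them.

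**Figure D1:**
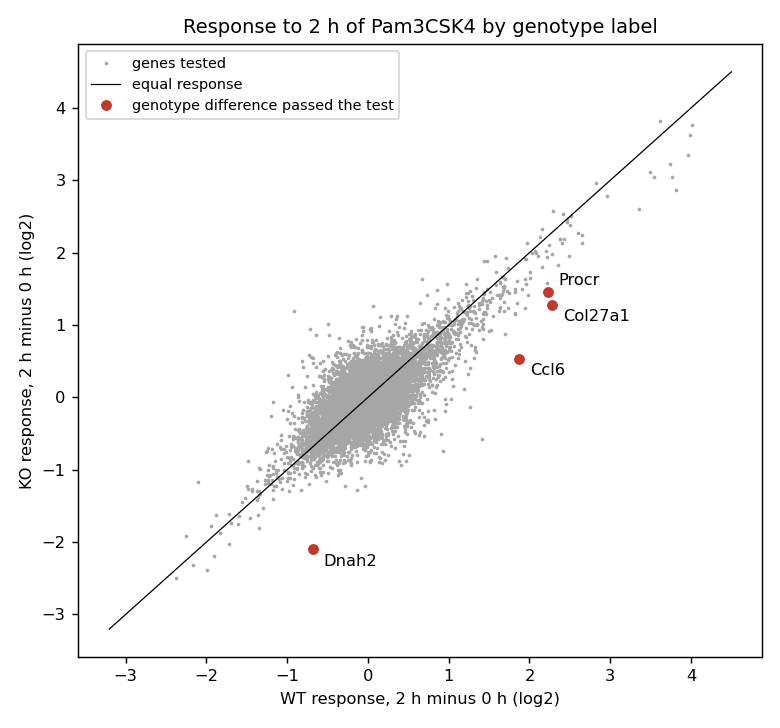
Each gene's 2 h response in KO (vertical axis, log2) is plotted against its 2 h response in WT (horizontal axis, log2). The 12791 genes scatter around the line of equal response (r = 0.766). The 4 labelled genes, whose difference was called, lie below it, and some genes that were not called lie farther from it.

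The precision of the difference sets what could be seen. Its median standard error was 0.22, and the median half-width of its 95% interval was 0.46. For 10770 genes (84.2%) the interval lay within 1 log2 unit of equal responses on either side, and the median difference of all genes was -0.01. As a description without a test, the sign of the difference was the same in all 16 combinations of 1 array per group for 17.7% of genes (7.94% higher and 9.74% lower in KO).

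Dnah2, which encodes a dynein heavy chain of motile cilia, had the smallest p. Its probe set read 8.77 and 8.82 on KO 2 h arrays and 10.85 and 10.94 on KO 0 h arrays, against 10.51 and 10.18 on WT 2 h arrays and 11.13 and 10.92 on WT 0 h arrays. The genotypes overlapped at 0 h and did not at 2 h, where KO was the lower one. Dnah2 fell in both genotypes, by 2.10 in KO and by 0.68 in WT, a difference of -1.42 ± 0.14 (adjusted p = 0.00047). The gap was -1.55 at 2 h (adjusted p = 5.6e-07) and -0.13 at 0 h (adjusted p = 0.63), and on the 4 h arrays it was -0.71 (adjusted p = 0.00079). By 4 h the WT arrays had reached 8.55 and 8.54, against 7.86 and 7.80 in KO. A second, dim probe set of Dnah2, with values between 4.19 and 5.23 on all 12 arrays, gave a difference of 0.72 ± 0.39 that was not called. With the mean of both probe sets in place of the brighter one the difference was -0.35 (adjusted p = 0.86).

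Ccl6, a CC chemokine made by myeloid cells, started higher in KO and rose less there. It read 7.57 and 7.50 on KO 2 h arrays and 7.03 and 6.98 on KO 0 h arrays, against 7.77 and 7.89 on WT 2 h arrays and 5.97 and 5.96 on WT 0 h arrays. Both KO arrays lay above both WT arrays at 0 h and below them at 2 h. The response was 0.53 in KO and 1.87 in WT, a difference of -1.34 ± 0.17 (adjusted p = 0.0046). The gap was -0.30 at 2 h (adjusted p = 0.23) and 1.04 at 0 h (adjusted p = 0.00011). A second probe set, which can match related sequences, gave -0.85 ± 0.29 with a gap of 0.73 at 0 h and -0.12 at 2 h.

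Col27a1, which encodes the chain of a fibrillar collagen of cartilage, rose in both genotypes from unequal starts. It read 8.37 and 8.42 on KO 2 h arrays and 7.03 and 7.21 on KO 0 h arrays, against 8.05 and 8.06 on WT 2 h arrays and 5.76 and 5.80 on WT 0 h arrays. KO was the higher genotype at both times, with a gap that narrowed to 0.34 at 2 h (adjusted p = 0.11), against 1.34 at 0 h (adjusted p = 3.6e-06). The response was 1.28 in KO and 2.28 in WT, a difference of -1.0 ± 0.14 (adjusted p = 0.014). A second probe set moved the same way (-0.35 ± 0.22). Col27a1 was no longer called without KO 0 h array B, without either KO 2 h array or without either WT 2 h array, with an adjusted p of up to 0.14, and on the deposited scale its difference was -1.15 (adjusted p = 0.83).

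Procr, the endothelial protein C receptor, which some dendritic cells also carry, was the only gene whose gap was called at both times in opposite directions. It read 11.17 and 11.35 on KO 2 h arrays and 9.75 and 9.85 on KO 0 h arrays, against 11.72 and 11.59 on WT 2 h arrays and 9.46 and 9.39 on WT 0 h arrays. The genotypes did not overlap at either time, and KO was the higher one at 0 h and the lower one at 2 h. The gap was -0.39 at 2 h (adjusted p = 0.0098) and 0.38 at 0 h (adjusted p = 0.0099), and the difference of the responses was -0.77 ± 0.11 (adjusted p = 0.011). At 4 h the gap was 0.07 (adjusted p = 0.76). Procr has 1 probe set here, of a kind that can match several transcripts, and it was no longer called without KO 0 h array B, KO 2 h array A or WT 2 h array A, with an adjusted p of up to 0.13. On the deposited scale its gap was -0.72 at 2 h (adjusted p = 0.12) and 0.20 at 0 h (adjusted p = 1).

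**Figure D2:**
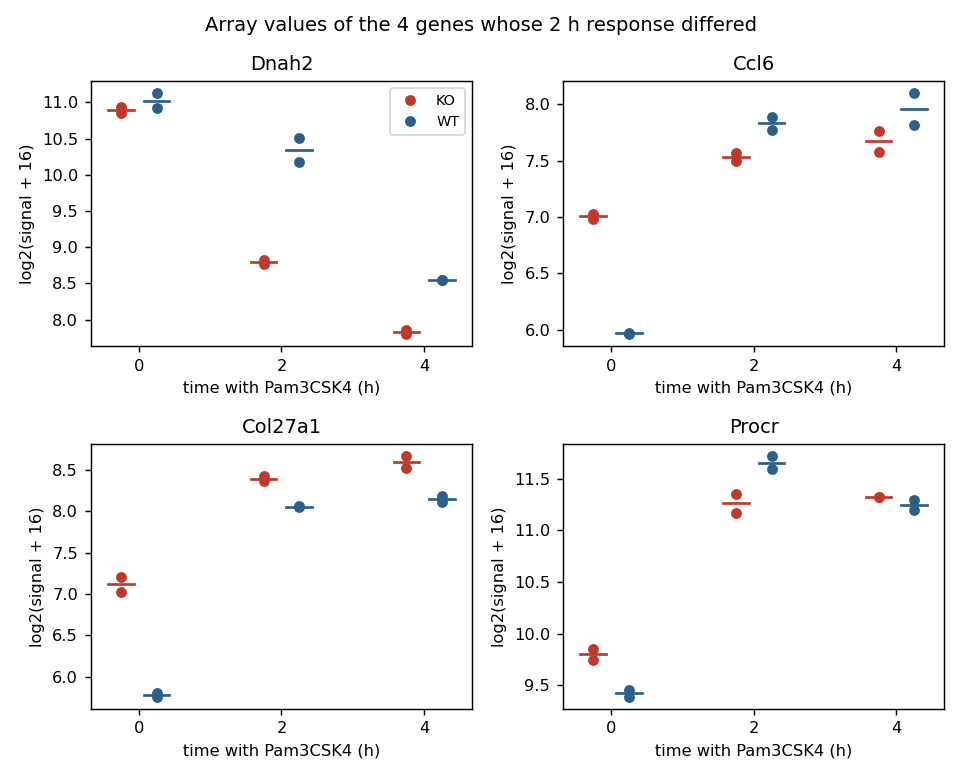
Each panel shows 1 of the 4 genes with a called difference, as log2(signal + 16) on every array (points, KO left of WT at each time) with the group mean (line). Dnah2 separated at 2 h, Ccl6 and Col27a1 were apart at 0 h, and Procr changed sides.

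The promoters of these 4 genes are shown because the genes were called together and because transcription factors of the AP-1 family are among the nuclear targets of MAP kinase signalling. Each is the stretch from 250 bases before to 50 after the gene's start, 5′ to 3′ on the gene's strand, from RefSeq on GRCm38.p6, with matches to the AP-1 motif TGANTCA in capitals. The regions are chr11:69549059-69549358 (minus strand) for Dnah2, chr11:83593038-83593337 (minus strand) for Ccl6, chr4:63215162-63215461 (plus strand) for Col27a1 and chr2:155750967-155751266 (plus strand) for Procr.
Dnah2: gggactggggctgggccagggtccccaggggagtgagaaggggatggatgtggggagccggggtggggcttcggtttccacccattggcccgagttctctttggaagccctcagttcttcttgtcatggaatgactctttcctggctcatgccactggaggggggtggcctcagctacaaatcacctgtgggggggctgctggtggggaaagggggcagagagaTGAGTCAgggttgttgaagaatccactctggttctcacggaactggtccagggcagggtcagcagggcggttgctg
Ccl6: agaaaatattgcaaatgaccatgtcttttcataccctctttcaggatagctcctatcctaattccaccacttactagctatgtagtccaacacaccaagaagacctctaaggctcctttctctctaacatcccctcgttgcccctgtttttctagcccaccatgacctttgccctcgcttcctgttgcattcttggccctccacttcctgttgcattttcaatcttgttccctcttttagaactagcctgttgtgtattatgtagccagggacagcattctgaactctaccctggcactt
Col27a1: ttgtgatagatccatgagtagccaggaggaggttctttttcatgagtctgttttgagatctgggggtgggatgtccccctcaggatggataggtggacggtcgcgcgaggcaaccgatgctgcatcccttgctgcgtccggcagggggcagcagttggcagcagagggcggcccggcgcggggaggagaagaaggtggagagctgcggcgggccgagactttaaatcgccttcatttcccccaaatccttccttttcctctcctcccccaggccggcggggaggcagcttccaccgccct
Procr: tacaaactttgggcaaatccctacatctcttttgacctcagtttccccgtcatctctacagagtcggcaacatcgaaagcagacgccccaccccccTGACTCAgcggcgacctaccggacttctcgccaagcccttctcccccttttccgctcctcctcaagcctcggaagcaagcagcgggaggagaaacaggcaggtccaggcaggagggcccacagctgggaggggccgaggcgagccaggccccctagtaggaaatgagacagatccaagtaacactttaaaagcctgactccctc
The AP-1 motif, which reads the same on both strands, was in the windows of Dnah2 and Procr, 1 match each, and these letters were not in those of Ccl6 and Col27a1. It was in 7.93% of all 27025 promoters of this length and in 5.5% of those of 10323 genes tested. No match to the CRE letters TGACGTCA, the NF-kB letters (GGG and TTCC with any 3 bases between them) or the PU.1 letters GAGGAAGT was found in the 4 windows on either strand. A match is a description of the letters and not a bound site.

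At an adjusted p under 0.1 there were 9 genes. The 15 genes of each direction named here were, beyond the 4 called, those with the smallest p, and they are given as values. With a smaller or more negative response in KO these included Ccl9 (-0.82, adjusted p = 0.051), Cd81 (-0.60, adjusted p = 0.057), Efnb2 (-0.85, adjusted p = 0.057), Rtcb (-0.82, adjusted p = 0.077), Arg2 and Tnfrsf4 (-0.66 and -0.53, adjusted p = 0.1 each). A second well-read probe set of Rtcb gave 0.06 ± 0.18 with a gap of 0.02 at 0 h, and one of Efnb2 gave -0.48 ± 0.17. In the other direction the smallest p belonged to Dlk2 (2.11, adjusted p = 0.057) and Malt1 (0.62, adjusted p = 0.14). Dlk2 was read near the filter, with 4.26 to 5.88 on the KO arrays of 0 h and 2 h and 4.29 to 5.62 on the WT arrays, and its second probe set gave 0.73. The Dlk2 values of KO lay below those of WT at 0 h and above them at 2 h. On the deposited scale the genes called by limma were Dlk2 (2.03, adjusted p = 0.00059), Lce1h (-1.90, adjusted p = 0.0014) and Dnah2. Ccl6, Col27a1 and Procr were not called on that scale. Trimmed-mean scaling called Dlk2 as well (2.19, adjusted p = 0.036). Chrac1, Ankrd13b, Thoc1, Snx20, Nfkb2, Eef1a2, Fosl2 and Il1b had positive differences between 0.43 and 1.30, with adjusted p between 0.16 and 0.45. Other probe sets gave 0.10 for Chrac1, 0.10 and 0.06 for Thoc1 and -0.07 for Fosl2.

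**Figure D3:**
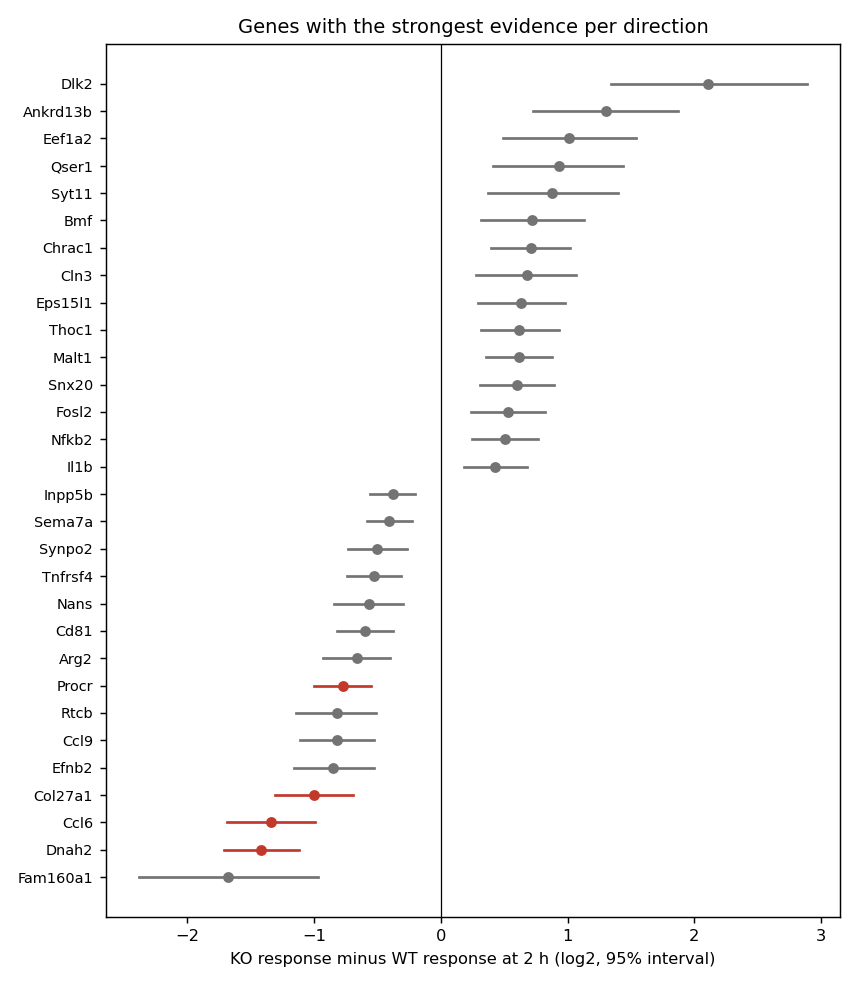
The difference KO response minus WT response at 2 h (horizontal axis, log2) is shown for the 15 genes named in each direction, as the estimate (point) with its 95% interval (line). The 4 called genes are in red, and the grey genes did not pass the test after adjustment.

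Ccl9 and Ccl6 are neighbouring chemokine genes with 0 protein-coding genes between them in RefSeq, and both were higher in KO at 0 h. Ccl9 read 9.48 and 9.37 on KO 2 h arrays and 8.63 and 8.45 on KO 0 h arrays, against 9.54 and 9.39 on WT 2 h arrays and 7.82 and 7.70 on WT 0 h arrays. Its gap of 0.78 at 0 h was called (adjusted p = 0.00021) and that of -0.04 at 2 h was not (adjusted p = 0.89). Both of its probe sets gave a difference of -0.82. Cd81, a tetraspanin of the cell surface, was higher in KO at both times, with called gaps of 0.35 at 2 h and 0.95 at 0 h.

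Malt1, the paracaspase that relays antigen receptor signals to NF-kB, had the opposite order. It read 9.48 and 9.31 on KO 2 h arrays and 8.99 and 9.04 on KO 0 h arrays, against 9.51 and 9.76 on WT 2 h arrays and 9.89 and 9.86 on WT 0 h arrays. Both KO arrays lay below both WT arrays at each time, and the gap was called only at 0 h (-0.86, adjusted p = 4.6e-05), with -0.24 at 2 h (adjusted p = 0.18). Its 3 probe sets gave differences of 0.62, 0.43 and 0.66. Nfkb2, an NF-kB subunit, and Il1b, the inflammatory cytokine, had gaps of -0.46 each at 0 h that were called and gaps of 0.05 and -0.03 at 2 h that were not. A second probe set of Nfkb2 had a gap of -0.13 at 0 h and a difference of 0.05 ± 0.13.

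Genes that rose at least 2-fold between 0 h and 2 h had, in most cases, a smaller rise in KO, by a small amount. They were selected on the average of the KO and WT responses, which was called for 31.3% of all genes, and numbered 205 with a rise of at least 2-fold. Of these, 150 (73.2%) had the smaller response in KO and 55 the larger one, where the difference was negative for 6684 of all 12791 genes. The median response was 1.32 in KO and 1.44 in WT, and the median difference was -0.13, against -0.01 over all genes. Differences of 5% of these genes lay below -0.65 and of 5% above 0.34. The 95% interval lay within 1 log2 unit for 185 of them (90.2%). At an unadjusted p under 0.05, 57 differed, 53 of them smaller in KO, where 453 of the 754 such genes overall had a negative difference, and 3 of the 4 called genes (Ccl6, Col27a1 and Procr) belong to this set. The median KO minus WT gap of the induced genes was -0.03 at 2 h and 0.14 at 0 h, with 7 called higher and 13 lower at 2 h (1.01% and 1.29% of all genes) and 31 called higher and 8 lower at 0 h (1.95% and 1.35% of all genes). The share with the smaller response in KO was 88.2% on the deposited scale and 65.6% without KO 0 h array A.

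The 75 genes that fell at least 2-fold were divided more evenly. The fall was smaller in KO for 40 and larger for 35, with a median difference of 0.02. Their gap was called lower in KO for 19 at 2 h (1.29% of all genes) and for 19 at 0 h (1.35% of all genes), and higher for 0 at either time. Among the cytokine genes, Tnf, Il12b and Il23a were chosen after their values were seen. Tnf, the tumour necrosis factor, responded by 3.82 in KO and 3.62 in WT, a difference of 0.20 with a 95% interval of -0.19 to 0.59. Il6 responded by 1.00 in KO and 1.31 in WT (difference -0.32, interval -0.50 to -0.14, adjusted p = 0.45). Il12b, the p40 subunit of IL-12 and IL-23, gave 0.43 (-0.12 to 0.99), and Il23a, the other IL-23 subunit, gave -0.03 (-0.54 to 0.47).

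Before the ligand the genotypes differed in 422 genes (3.3%), 249 higher (1.95%) and 173 lower (1.35%) in KO, and at 2 h in 294 genes (2.3%), 129 higher (1.01%) and 165 lower (1.29%). The gap was called at both times in the same direction for 172 genes, which are 40.8% of those called at 0 h and 58.5% of those called at 2 h. For 0 of these the genotype difference of the response was called, against 0.0313% of all genes. Choosing gaps of the same direction at both times itself favours a small difference. At an unadjusted p under 0.05 in limma, the response differed for 10 of the 72 higher and 11 of the 100 lower genes, against 5.89% of all genes. On the 4 h arrays 2.39% of all genes were called (1.13% higher and 1.26% lower). Of the 72 higher genes 52, and of the 100 lower genes 76, were called there in the same direction. The 4 h arrays were not compared in either gap but shared the normalization and the estimate of the spread. Calls at 4 h are therefore not independent of those at 0 h and 2 h. The gap passed the threshold at 0 h and not at 2 h for 176 higher and 73 lower genes, of which 161 and 68 had the same sign at 2 h. It passed at 2 h and not at 0 h for 57 higher and 64 lower genes, of which 46 and 57 had the same sign at 0 h. The 2 gaps correlated with r = 0.343 across genes. Without single arrays the count of called gaps was 192 (without WT 0 h array B) to 397 at 0 h and 67 (without WT 2 h array B) to 305 at 2 h. On the deposited scale 31 genes were called at 0 h and 66 at 2 h, and the share of higher calls was 32.3% at 0 h and 7.58% at 2 h, against 59% and 43.9% after quantile normalization. As a description of all genes tested, arrays of the genotypes did not overlap in 45% of genes at 2 h (26.4% higher and 18.6% lower in KO) and in 43.1% at 0 h (27.5% higher and 15.5% lower).

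**Figure D4:**
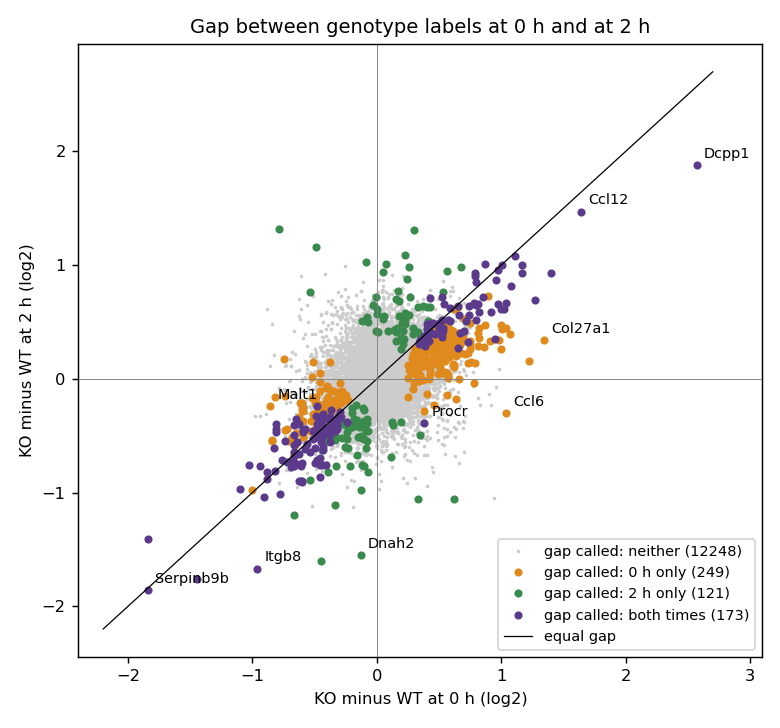
The KO minus WT gap at 2 h (vertical axis, log2) is plotted against that at 0 h (horizontal axis, log2) for all genes tested, coloured by the time at which the gap was called. Genes on the diagonal line had the same gap at both times and so no difference of the response, and Dnah2 lies far below it and Ccl6 far to its right.

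Several of the larger gaps were called at both times in the same direction. Serpinb9b, a serine protease inhibitor, read 8.70 and 8.55 on KO 2 h arrays and 8.23 and 7.98 on KO 0 h arrays, against 10.43 and 10.53 on WT 2 h arrays and 9.95 and 9.95 on WT 0 h arrays. The genotypes were apart at both times, by -1.86 at 2 h and -1.84 at 0 h, and the difference of the responses was -0.01 ± 0.13. Dcpp1 was higher in KO, by 1.88 at 2 h and 2.57 at 0 h. Tex14 was lower in KO, with gaps of -1.41 at 2 h and -1.84 at 0 h, as was Myom1, with -1.76 and -1.45. Itgb8, the integrin β8 chain that takes part in activating TGF-β, had gaps of -1.67 at 2 h and -0.96 at 0 h, and its rise was 1.23 in KO and 1.94 in WT (difference -0.71 ± 0.25, adjusted p = 0.75). Among the genes called only at 0 h, the largest gaps were those of Col27a1, Prdm11 (1.22), Mmp13 (1.07), Egfl7 (1.04) and Ccl6, with 0.21 on a second, dim probe set of Prdm11 and 0.37 to 0.86 on 3 others of Egfl7. Among those called only at 2 h they were those of Zfp819 (-1.60), Dnah2, Dlk2 (1.32), Des (1.31) and Plekhs1 (-1.20). Zfp819 read 4.28 to 4.88 on the KO arrays of 0 h and 2 h, near the filter, and Des read 5.35 and 4.35 on WT 2 h arrays. The probe set used for Prdm11 was also near the filter, with 4.36 and 4.46 on WT 0 h arrays, against 6.02 and 5.24 on KO 0 h arrays. At 4 h the gaps were -0.84 for Zfp819, -0.71 for Dnah2, 0.11 for Dlk2, -0.23 for Des and -1.15 for Plekhs1. For the genes called only at 0 h they were 0.44 for Col27a1, -0.93 for Prdm11, 0.20 for Mmp13, 0.55 for Egfl7 and -0.29 for Ccl6.

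Chemokine genes were often higher in KO before the ligand. Of 27 chemokine genes tested, 9 were higher and 0 lower in KO at 0 h (background 1.95% higher) and 4 were higher and 0 lower at 2 h (background 1.01% higher). The difference of the response was called for 1, Ccl6, and its median was -0.14, against -0.01 for all genes. The 9 were the monocyte attractants Ccl2, Ccl7, Ccl8 and Ccl12, with Ccl3, Ccl4, Ccl6, Ccl9 and Cxcl9, and the first 4 were the ones still called at 2 h. Ccl12 read 7.62 and 8.02 on KO 2 h arrays and 7.97 and 7.85 on KO 0 h arrays, against 6.75 and 5.96 on WT 2 h arrays and 6.22 and 6.32 on WT 0 h arrays. The genotypes did not overlap at either time, and the gap was 1.47 at 2 h and 1.64 at 0 h. Ccl2 had gaps of 0.61 and 1.00, Ccl7 of 0.69 and 1.27 and Ccl8 of 0.93 and 1.17 at 2 h and 0 h. On the deposited scale 3 chemokine genes were called higher at 0 h, where 31 of all genes were called and 32.3% of those were higher.

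**Figure D5:**
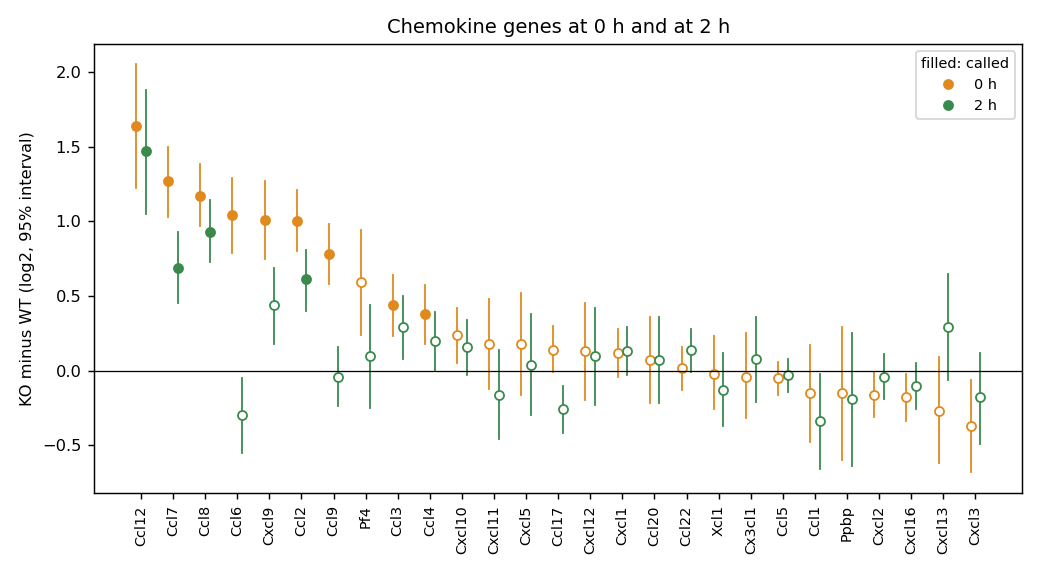
The KO minus WT gap of each of the 27 chemokine genes tested (vertical axis, log2) is drawn at 0 h and at 2 h with its 95% interval, filled where it was called. From left to right the genes run from the largest gap at 0 h downward, and the gaps of Ccl6 and Ccl9 are near or below 0 at 2 h.

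Markers of macrophages and monocytes, cells a dendritic cell culture can also hold, moved with the genotype label at every time. Of 23 listed, 19 were tested. Of these, 12 were higher and 0 lower in KO at 0 h (background 1.95% higher), and 10 higher and 0 lower at 2 h (background 1.01% higher). At 4 h, 9 were higher (background 1.13% higher). The median gap was 0.44 at 2 h and 0.47 at 0 h, against 0.03 and 0.04 over all genes. The summed signal of the list was 9860 and 9520 on KO 2 h arrays and 11200 and 10900 on KO 0 h arrays, against 6930 and 6540 on WT 2 h arrays and 7380 and 7070 on WT 0 h arrays. Lyz2, a lysozyme gene, had gaps of 0.87 at 2 h and 0.96 at 0 h, and C1qa, a complement component, of 0.66 and 0.97. Cd163 and Siglec1, also on the list, did not pass the filter. The difference of the response was called for 0 of the 19, by limma (1 had an unadjusted p under 0.05), with a median of -0.08. On the deposited scale 1 of these markers was called higher at 0 h and 0 at 2 h, although the median stayed 0.38 and 0.37 above that of all genes. On that scale 31 of all genes were called at 0 h and 66 at 2 h, of which 32.3% and 7.58% were higher. Fewer or more cells of a type and less or more RNA per cell cannot be told apart in bulk arrays, and the part of these cells in the chemokine result was not tested. Of 15 B cell markers tested, 2 were higher in KO at each of 2 h and 0 h (1.01% and 1.95% of all genes), with summed signals of 2550 and 2470 on KO 2 h arrays and 2390 and 2470 on KO 0 h arrays, against 2160 and 2170 on WT 2 h arrays and 1880 and 1800 on WT 0 h arrays. Of 16 stromal and endothelial markers tested, 2 were likewise higher and 0 lower at each time, with a median gap of 0.20 at 2 h and 0.22 at 0 h. Their summed signal was 1950 and 2040 on KO 2 h arrays and 1770 and 1930 on KO 0 h arrays, against 1790 and 1520 on WT 2 h arrays and 1390 and 1420 on WT 0 h arrays.

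No other list had a called difference of the response. The 31 cytokine genes tested had 0 (median -0.04), and among them the called gaps were 1 higher at 2 h (1.01% of all genes) and 4 higher and 2 lower at 0 h (1.95% and 1.35% of all genes). Cd70 and Tnfsf9, ligands that costimulate T cells, had gaps of 1.00 and 0.62 at 0 h that were called, and 0.26 and 0.10 at 2 h. Their responses were 3.04 in KO and 3.77 in WT for Cd70 (difference -0.74 ± 0.17, adjusted p = 0.30) and 3.22 and 3.74 for Tnfsf9. Ebi3, a chain shared by heterodimeric cytokines of the IL-12 family, had gaps of 0.27 at 2 h and 0.65 at 0 h, both called, of which the one at 2 h was -0.05 on the deposited scale. Of 27 co-stimulation and maturation genes, 7 had a positive and 20 a negative difference, against 6107 and 6684 of all genes, with Cd86, a ligand of CD28, at -0.38 ± 0.09 (adjusted p = 0.30) and at -0.18 on its second probe set. Ido1, which breaks down tryptophan, was lower in KO at 2 h (-0.77) and at 0 h (-0.94). The 34 type I interferon response genes had 24 positive and 10 negative differences and a median of 0.09, with 0 called and 5 at an unadjusted p under 0.05, all higher, where 301 of all 12791 genes were higher at that p.

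Of 45 p38 and MAPK pathway genes, 0 had a called difference of the response, against 0.0313% of all genes. Their called gaps were 1 higher and 2 lower in KO at 2 h, against 1.01% and 1.29% of all genes, and 0 higher and 1 lower at 0 h, against 1.95% and 1.35%. Dusp1, the phosphatase that switches off p38, had gaps of -0.43 at 2 h and -0.48 at 0 h, both called, and its response was -0.06 in KO and -0.11 in WT. Its values were 10.75 and 10.74 on KO 2 h arrays and 10.76 and 10.85 on KO 0 h arrays, against 11.16 and 11.21 on WT 2 h arrays and 11.37 and 11.21 on WT 0 h arrays, with no overlap. Dusp1 lies on chromosome 17, as do Mapk14, Cd70, Tnfsf9, Ebi3 and Dlk2. Whether that bears on their gaps was not tested. Of 23 AP-1 and CREB family factors, 0 had a called difference, and Fosl2 was the closest (0.53, adjusted p = 0.39). Their called gaps were 1 higher and 1 lower at 2 h and 2 higher and 1 lower at 0 h, against the same shares of all genes. The higher ones were Maff at both times and Batf3 at 0 h. Of 27 immediate-early genes, 0 had a called difference. Their called gaps were 0 higher and 1 lower at 2 h and 1 higher and 2 lower at 0 h. Arc was lower in KO at both times (-0.90 at 2 h and -0.63 at 0 h), and Egr2 was the higher one at 0 h (0.70). The 33 NF-kB early targets had 0 higher and 2 lower genes at 2 h, against 1.01% and 1.29% of all genes. At 0 h they had 4 higher and 5 lower, against 1.95% and 1.35% of all genes. The lower ones included Birc2 and Rel at both times. Ccnd1, the cyclin of G1, was higher in KO by 0.96 at 2 h and 0.97 at 0 h on its brightest probe set, with a difference of the responses of -0.02 ± 0.13. Another bright probe set of Ccnd1 had gaps of 1.16 at 2 h and 0.71 at 0 h and a difference of 0.45 ± 0.10. The dimmer one gave 0.48 ± 0.24, so the probe sets disagree on the response. In limma's stricter fit over all probe sets, the differences of 0.45 and 0.48 were not called (adjusted p = 0.58 and 0.94).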

How the data were processed

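Each of the 12 samples was 1 Affymetrix mouse expression array. The deposited table holds linear intensity values per probe set, made with MAS5 per the submitters' processing notes, whose version and scaling target the sources used here do not state. The values were quantile-normalized between arrays and taken as log2(signal + 16), so a fold change of a low gene is understated. Of 45101 probe sets, 34958 had 1 gene symbol, and the brightest one stood for each of 18193 genes. The 12791 genes at or above the 40th percentile (log2 4.73) were tested. A single linear model with a mean for each of the 6 groups used all 12 arrays (limma 3.58.1 under R 4.3.3, empirical Bayes with a mean-variance trend). All p-values are two-sided and were adjusted by the Benjamini-Hochberg method. The fit was tested on simulated data.

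The 32 gene lists and the comparison were chosen with earlier results of these data known. Named genes were Mapk14, the called differences and the smallest p up to 15 per direction, up to 3 called members per list, and up to 5 of the largest gaps per class of the split, passing over clone-like names. Others, such as the remaining chemokines called at 0 h, Tnf, Il12b, Il23a and C1qa, were chosen after their values were seen. Alternatives covered scaling, pseudocount, filter, probe sets, trend, samples in the fit, a replicate block and single arrays left out.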

Additional observations from a re-analysis of the deposited data

Results flagged for a closer look

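The responses of 4 genes differed between the genotypes by the test of the difference itself (limma over all genes, adjusted p under 0.05). Dnah2 had a difference of -1.42 (adjusted p = 0.00047), Ccl6 of -1.34 (adjusted p = 0.0046), Col27a1 of -1.0 (adjusted p = 0.014) and Procr of -0.77 (adjusted p = 0.011). In limma's fit over all probe sets, only Dnah2 stayed under 0.05 (adjusted p = 0.018). There Ccl6 had 0.055, Col27a1 0.12 and Procr 0.13. Over the alternatives run the estimates ranged from -1.58 to -0.35 for Dnah2, from -1.58 to -0.92 for Ccl6, from -1.28 to -0.57 for Col27a1 and from -0.91 to -0.68 for Procr. Dnah2 was called in 18 of 20 alternatives, Ccl6 in 17 of 20, Procr in 13 of 19 and Col27a1 in 10 of 20. The cause of these differences was not tested.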

How the results depend on the processing

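With 2 arrays a group, the number of arrays limits what the difference of the responses can show. At adjusted p under 0.1, 9 genes differed in response, 522 between KO and WT at 2 h and 479 at 4 h. With a log2 change of at least 1 added, gaps were called for 23 genes at 0 h, 24 at 2 h and 24 at 4 h, and for 8 at both 0 h and 2 h. That threshold left 295 genes for the KO response, 319 for the WT response and 280 for the mean response. On the deposited scale 31, 66 and 43 genes were called at 0, 2 and 4 h, 12 at both 0 h and 2 h and 6345 in the mean response, and 88.2% of induced genes had the smaller response in KO. That scale moved the median of all genes to -0.15 in the gap at 2 h, to -0.41 in the KO response and to -0.35 in the WT response, and the share of higher calls was 5.72% in KO and 11.8% in WT, against 40.1% and 42.4%. Without the trend, 0 genes differed in response and 116, 71 and 85 at 0, 2 and 4 h, with 33 at both. With the mean of all probe sets, 0 differed in response and 198 at 4 h. The cause of these changes was not tested.

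The labels give arrays A and B only as letters. Their A minus B deviations correlated between groups with r from -0.04 to 0.10. Such values do not settle whether arrays of the same letter shared an animal, a culture or a batch. With a replicate block within genotype, 5 genes differed in response, 239 at 0 h, 169 at 2 h, 160 at 4 h and 97 at both 0 h and 2 h. With a replicate block over all arrays these were 6 for the response, 462 at 0 h and 315 at 2 h.

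Without single arrays the calls ranged from 2 to 8 for the difference of the responses, with 2 without KO 2 h array A or WT 2 h array A and 8 without WT 0 h array A. They ranged from 192 to 397 at 0 h, from 67 to 305 at 2 h, from 51 to 131 for both, and from 1588 (without KO 0 h array A) to 2488 for the KO response. The induced genes with the smaller response in KO ranged from 65.6% to 73.6%. Single gaps that turned were Synpo2 at 0 h (-0.32) and Zfp36l2 at 2 h (-0.12) with the mean of all probe sets, Ebi3 at 2 h on the deposited scale (-0.05) and Lyz1 at 2 h without shared probe sets (-0.32). Over all alternatives, those above included, 150 counts and shares of comparisons stayed within 1.5 times or the 95% binomial interval of the reported value and 45 did not. Of the values of single genes and lists, 7276 kept direction and call, 690 lost the call, 52 gained it, 158 moved and 4 turned.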
